A study of Mus musculus with 6 samples.

Results

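The lysosomal genes described here are 45 genes for hydrolases, membrane proteins and regulators of the lysosome, out of 24340 genes with a value in every sample. They were chosen by name, as the rows of the expression table whose gene identifier is one of the 45 symbols, and all 45 were found. RNA of alveolar macrophages (AMs), the macrophages of the airspaces of the lung, was sequenced in 6 samples, 3 from CD44+/+ and 3 from CD44-/- mice. All mice were naive females of the C57BL/6 strain, aged 6 to 10 weeks, and each sample was a pool of mice, with pools of unequal size that were weighted equally here. AMs were washed out of the lung by bronchoalveolar lavage (BAL) in PBS with EDTA, and red blood cells were lysed before RNA was extracted. CD44 is a surface receptor for hyaluronan, a glycosaminoglycan of the extracellular matrix. The CD44-/- genotype is that of the whole mouse, so the other cells of the lung carried it too. Expression is given as FPKM, the fragments of a transcript counted relative to its length and to the fragments mapped in the sample, so that levels can be compared between genes. The comparison asks whether the RNA of the lysosomal system differed between AMs with and without CD44.

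Lysosomes are the acid compartments in which cells degrade what they take up and what they recycle from within. A proton pump, the V-ATPase, acidifies them, proteases of the cathepsin family cut proteins, and separate enzymes take apart sphingolipids, neutral lipids, phospholipids and glycans, with cholesterol leaving through a carrier pair. The transcription factors TFEB, TFE3 and MITF bind an E-box motif in the promoters of many lysosomal genes and raise their expression when they enter the nucleus, which the kinase complex mTORC1 on the lysosome restrains by phosphorylation. AMs use this system to degrade lung surfactant, which they take up from the airspaces, a mixture of phospholipids, cholesterol and proteins.

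The motif that these factors are known to bind has CACGTG at its core. The promoters of RefSeq transcripts (GRCm38.p6, from 250 bases before the start of the transcript to 50 bases after it) were searched on both strands for CACGTG, for TCACGTG and for TCACGTGA, each of which holds the shorter motifs. Of the 45 genes, 39 had a promoter in this set, and Ctsb, Ctsh, Npc1, Asah1, Atp6v0d2 and Atp6v1h had none. The core CACGTG was present in promoters of 13 of the 39 genes (33.3%), against 8.09% of 27025 genes, and TCACGTG in 11 (28.2%), against 4.29%. The 27025 genes were all those of the promoter set, not only genes expressed in AMs. They were not matched to the 39 in level or base composition. The full TCACGTGA was present in 6 of the 39 genes (15.4%) and in 1.12% of all genes, or 0.974% of 32851 promoters. These 6 genes cover a protease, a serine carboxypeptidase, a sphingolipid hydrolase, a proton pump subunit, a calcium channel and a membrane sialomucin. All of their TCACGTGA matches are shown because they are the letters these regulators are known to bind. Each window has 30 bases, reads 5′ to 3′ on the strand of the gene, and has the motif in capitals.
Ctsd, chr7:142387908-142387937, minus strand: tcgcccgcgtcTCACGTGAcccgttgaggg
Mcoln1, chr8:3500462-3500491, plus strand: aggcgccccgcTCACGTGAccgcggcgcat
Cd164, chr10:41519401-41519430, plus strand: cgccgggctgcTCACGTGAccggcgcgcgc
Atp6v1a, chr16:44139373-44139402, minus strand: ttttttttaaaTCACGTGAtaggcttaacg
Ctsa, chr2:164833749-164833778, plus strand: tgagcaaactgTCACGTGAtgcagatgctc
Ctsa, chr2:164833766-164833795, plus strand: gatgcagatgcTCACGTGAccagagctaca
Gla, chrX:134601215-134601244, minus strand: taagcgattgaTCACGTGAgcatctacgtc
Gla, chrX:134601182-134601211, minus strand: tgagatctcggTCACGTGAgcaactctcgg
The centre of the motif lay 42 bases before the start of the transcript in Mcoln1, 84 in Cd164, 95 in Ctsd and 128 in Atp6v1a. Ctsa held 2 copies around its start, with centres 9 bases before it and 8 bases after it, and Gla held 2 copies 224 and 191 bases before its start. A match of these letters is a description of the promoter and not evidence of binding in AMs.

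The 10800 genes whose mean reached 0.5 FPKM were fitted with limma after a log2 transformation of FPKM + 0.1, and p-values were adjusted by the Benjamini-Hochberg method over all of them. A fold change above 0 on this log2 scale is higher in CD44-/- AMs, and its 95% interval comes from the same model. Cd44 itself had 527 to 540 FPKM across CD44+/+ samples, and 51.4 to 54.7 FPKM across CD44-/- samples, which set the genotypes apart as labelled. Summed FPKM per sample ranged from 487901 to 504182, and depth relative to CD44+/+ replicate 1 from 0.814 to 1.06. The absolute depth is unknown, and the p-values measure the spread between pools. The AM markers Siglecf, Itgax, Marco, Pparg and Chil3 were present in every sample, and 11 AM markers summed to 15570 to 18070 FPKM in CD44+/+ and 14490 to 18590 FPKM in CD44-/- samples, most of it Chil3. Without Chil3 the sums were 4345 to 4868 FPKM and 4193 to 4488 FPKM. Of the 11 markers 9 had a log2 fold change below 0 and none passed with limma, while Krt79 (-0.38, limma adjusted p = 0.185), Lpl (-0.19) and Mrc1 (-0.08) were lower in CD44-/- AMs without overlap (27.3% of the markers, beside 4.88% of all genes tested) and Itgax (0.08) was higher without overlap (9.09%, beside 6.75%). The summed markers of each other cell type overlapped between the genotypes, apart from 7 markers of monocytes and interstitial macrophages, which summed to 8.97 to 11.4 FPKM in CD44+/+ and 13.3 to 15 FPKM in CD44-/- samples. Single markers were higher in CD44-/- AMs without overlap among those of alveolar type 2 cells (Sftpb, at most 6.53 FPKM) and neutrophils (Csf3r, 9.32 to 11.9 FPKM against 13.0 to 15.4 FPKM), and Sftpc of type 2 cells reached 74.2 FPKM in CD44-/- replicate 3, against 6.83 to 22.8 FPKM in the rest. Erythroid markers summed to 336.5 FPKM in CD44-/- replicate 2 and 124 FPKM in CD44+/+ replicate 2, against 14.7 to 30.1 FPKM in the rest. The part of these markers in the results below was not tested. Epx and Prg2 of eosinophils were at 0 in all 6 samples.

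All 45 lysosomal genes were expressed in AMs of both genotypes, and all 45 were well above the limit for testing. Their mean level over the 6 samples ranged from 14.05 FPKM for Smpd1, which ranked 4975 of all genes, to 4937 FPKM for Ctsd, which ranked 6. The median gene had 193 FPKM, against 12.2 FPKM over all genes tested, 29 of the 45 reached 100 FPKM, and 9 ranked within the 100 highest genes. The RNA was concentrated in a few genes. Ctsd, Ctss and Psap held 51.8% of the summed FPKM of the 45 genes, and with Laptm5 and Ctsz the share was 61.3%.

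**Figure D1:**
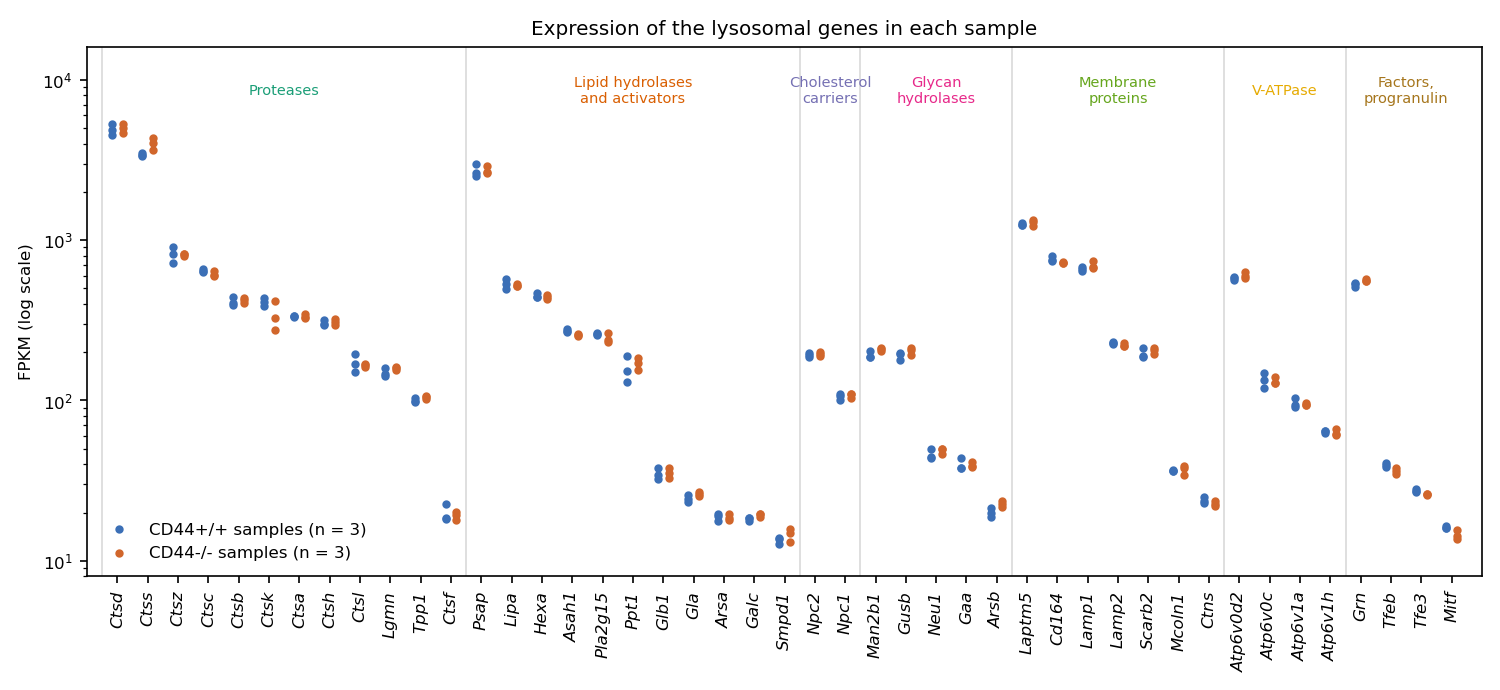
FPKM of each of the 45 lysosomal genes in every sample, on a log axis, ordered by role and by level within a role; blue points are CD44+/+ samples and orange points CD44-/- samples, 3 each. Mean levels over the 6 samples run from 14.05 FPKM (Smpd1) to 4937 FPKM (Ctsd), and within nearly every gene the points of the genotypes lie together.

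No lysosomal gene passed the test between the genotypes. With limma, 0 of 45 had an adjusted p under 0.05, where 12 of the 10800 genes (0.111%) did, and the smallest adjusted p among the 45 was 0.499. Log2 fold changes ran from -0.30 (Ctsk) to 0.22 (Ctss), with 26 genes above and 19 below 0, and 37 of the 45 within 0.1 of it. The median log2 fold change was 0.018, beside 0.013 over all genes tested. For 39 of 45 genes the whole 95% interval lay within 0.25 of 0 on the log2 scale, which was so for 44.2% of all genes tested and for 72.4% of the 4973 genes tested at or above the level of Smpd1. The 6 genes whose intervals reached further were Ctss, Ctsk, Ppt1, Arsb, Smpd1 and Mitf. The median residual SD was 0.064 for the 45 genes and 0.077 for the 4973 genes of like or higher level.

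**Figure D2:**
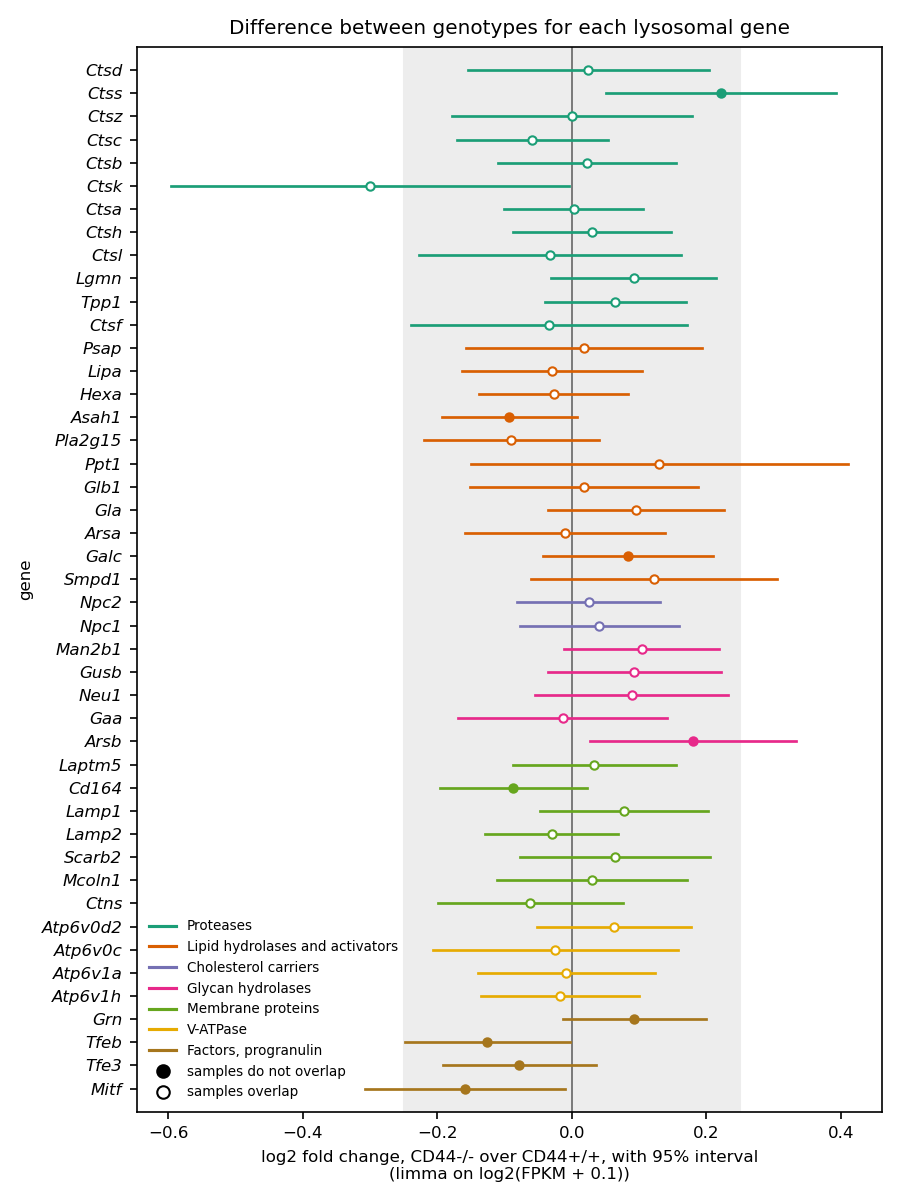
Log2 fold change of each lysosomal gene, CD44-/- over CD44+/+ on log2(FPKM + 0.1), with the 95% interval from limma; colours give the role, filled points mark genes whose samples do not overlap between genotypes, and the grey band spans 0.25 on each side of 0. Intervals of 39 of 45 genes stay within the band, and the widest interval is that of Ctsk.

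At an unadjusted p under 0.05, 2 of the 45 genes were higher in CD44-/- AMs (Ctss and Arsb), where 4.75% of all genes tested were, and 3 were lower (Mitf, Tfeb and Ctsk), where 2.94% were. In 4 of 45 genes every CD44-/- sample lay above every CD44+/+ sample (Ctss, Arsb, Grn and Galc), beside 6.75% of all genes tested. In 5 of 45 every CD44-/- sample lay below (Mitf, Tfeb, Tfe3, Asah1 and Cd164), beside 4.88%. As shares of the 45 genes these counts were 8.89% and 11.1%, beside 5.23% higher and 6.15% lower among the 4973 genes of the level of Smpd1 or above. In bulk samples, fewer cells of a type and less RNA per cell cannot be told apart.

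The 45 genes together held 4.36% ± 0.17 of the summed FPKM in CD44+/+ and 4.48% ± 0.13 in CD44-/- AMs (SD, n = 3). By replicate number the share was 4.31%, 4.23% and 4.55% for CD44+/+, against 4.62%, 4.38% and 4.43% for CD44-/-. The ranges overlapped and the difference was within the spread of the samples (exact two-sided permutation p = 0.4, where 3 samples against 3 cannot give less than 0.1). The sample with the highest value of a gene was most often CD44+/+ replicate 3 (12 genes), and the lowest was most often CD44+/+ replicate 1 or 2 (11 genes each).

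The 12 proteases include the most abundant lysosomal RNA of AMs and also the gene pair with the largest differences. Ctsd encodes cathepsin D, the main aspartic protease of the lysosome. It had 4840, 4540 and 5310 FPKM across CD44+/+ samples, and 5280, 4670 and 4980 FPKM across CD44-/- samples. The genotypes spanned the same range, and the log2 fold change was 0.02 (95% interval -0.16 to 0.20).

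Ctss encodes cathepsin S, a cysteine protease that cuts the invariant chain of MHC class II. It lies at chr3:95526786-95556405 (mm10). Its expression was 3512, 3365 and 3391 FPKM across CD44+/+ samples, and 4356, 3626 and 4021 FPKM across CD44-/- samples. The CD44-/- samples were all higher than the CD44+/+ samples, with CD44-/- replicate 1 on top. The log2 fold change was 0.22 (SE 0.075, 95% interval 0.050 to 0.39, limma adjusted p = 0.499), a ratio of 1.17. Quantile normalization brought it down to 0.13, and without CD44-/- replicate 1 it was 0.16. The 7 genes of MHC class II and its chaperones summed to 1347, 1136 and 1046 FPKM across CD44+/+ samples, and 1268, 2246 and 1777 FPKM across CD44-/- samples. The lowest of these CD44-/- sums was in replicate 1, the sample with the highest Ctss. The markers of monocytes and interstitial macrophages, which also did not overlap between the genotypes, summed to at most 15 FPKM. The part of these markers in the Ctss values was not tested, nor was any relation of Ctss to the MHC class II genes.

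Ctsk encodes cathepsin K, a cysteine protease that degrades collagen and is best known from osteoclasts. It lies at chr3:95499210-95509387 on the same strand as Ctss, with 17398 bases between the genes. Its expression was 387, 412 and 437 FPKM across CD44+/+ samples, against 275, 415 and 327 FPKM for CD44-/-. Replicates 1 and 3 of the CD44-/- AMs were below all CD44+/+ samples, while replicate 2 lay among them. The log2 fold change was -0.30 (SE 0.13, 95% interval -0.60 to -0.0040, limma adjusted p = 0.645), and it was -0.16 without CD44-/- replicate 1 and -0.46 without CD44-/- replicate 2. This was the largest absolute fold change of the 45 genes and came with the largest residual SD on the log2 scale. In FPKM the SD of Ctsk was 70.8 in CD44-/- and 25 in CD44+/+ AMs (n = 3). The 6 markers of osteoclasts, Ctsk not among them and Acp5 the highest, summed to 237 to 333 FPKM in CD44+/+ and 265 to 299 FPKM in CD44-/- samples, within the same range, and apart from Acp5 and Nfatc1 they were at or near 0 in every sample.

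Since the neighbouring genes differed in opposite directions, their ratio within a sample was also taken, a value chosen after the values were seen. Ctss over Ctsk was 9.08, 8.17 and 7.76 for CD44+/+, against 15.8, 8.74 and 12.3 for CD44-/-. The ranges overlapped through CD44-/- replicate 2 (exact two-sided permutation p = 0.2, n = 3 in each group). Within each of the 3 same-numbered pairs the ratio was higher in the CD44-/- sample. As the genes were picked for these values, neither this order nor the permutation p is a separate test of them.

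The other cathepsins and proteases had nearly the same level in both genotypes. Ctsz, a carboxypeptidase, had 725, 823 and 906 FPKM across CD44+/+ samples, and 825, 797 and 823 FPKM across CD44-/- samples, a log2 fold change of 0.00049 (95% interval -0.18 to 0.18). Its wider spread was in the CD44+/+ samples. Ctsc, the dipeptidyl peptidase that activates serine proteases of granules, had 643 ± 11.5 FPKM in CD44+/+ and 618 ± 24.8 FPKM in CD44-/- AMs (SD, n = 3). Ctsb, an endopeptidase and carboxypeptidase, had 415 ± 26.5 and 421 ± 13.5 FPKM (SD, n = 3). Ctsa, the serine carboxypeptidase that shields Glb1 and Neu1 in a complex, had 335 ± 2.46 and 336 ± 10.9 FPKM (SD, n = 3), and Ctsh, an aminopeptidase, 303 ± 11.5 and 309 ± 12 FPKM. All of their 95% intervals covered 0.

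Ctsl, a cysteine endopeptidase, had 171 ± 22.1 FPKM in CD44+/+ and 166 ± 4 FPKM in CD44-/- AMs (SD, n = 3). Lgmn, the asparaginyl endopeptidase legumain that matures several cathepsins, had 149 ± 8.74 and 159 ± 3 FPKM (SD, n = 3), and its log2 fold change of 0.09 had an interval of -0.031 to 0.22. Tpp1, which removes tripeptides from the ends of proteins, had 100.1 ± 2.55 and 104.7 ± 2.52 FPKM (SD, n = 3). Ctsf had the lowest level of the proteases, with 19.7 ± 2.40 and 19.2 ± 1.01 FPKM (SD, n = 3). Within these 4 genes Ctsl and Lgmn overlapped in level, while Tpp1 and Ctsf were each below the next gene in all samples. For the 12 proteases together, 8 log2 fold changes were above and 4 below 0, with a median of 0.013.

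The 11 hydrolases and activators of lipid breakdown had 6 log2 fold changes above and 5 below 0, with a median of 0.018, and none had an unadjusted p under 0.05. Psap encodes the precursor of the saposins, which present sphingolipids to their hydrolases. It had 2626, 2526 and 2973 FPKM across CD44+/+ samples, and 2918, 2623 and 2673 FPKM across CD44-/- samples, a log2 fold change of 0.02 (95% interval -0.16 to 0.19). The samples of the genotypes were interleaved. Lipa, the acid lipase that hydrolyses the cholesteryl esters and triglycerides of lipoproteins, had 534 ± 37.1 FPKM in CD44+/+ and 522 ± 10.2 FPKM in CD44-/- AMs (SD, n = 3), and its interval of -0.16 to 0.11 on the log2 scale covers 0.

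Pla2g15 is the lysosomal phospholipase that acts on surfactant phospholipids in AMs. It had 264, 257 and 259 FPKM across CD44+/+ samples, and 264, 232 and 238 FPKM across CD44-/- samples. CD44-/- replicate 1 matched the highest CD44+/+ sample, and the other CD44-/- samples were below all CD44+/+ samples. The log2 fold change was -0.09 (95% interval -0.22 to 0.041), and it was -0.15 without CD44-/- replicate 1 and -0.053 without CD44-/- replicate 2.

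Asah1 encodes acid ceramidase, which splits ceramide into sphingosine and a fatty acid, and lies at chr8:41340643-41374697 (mm10). It had 267, 279 and 273 FPKM across CD44+/+ samples, and 261, 251 and 256 FPKM across CD44-/- samples. The CD44-/- samples were all below the CD44+/+ samples, by a log2 fold change of -0.09 (SE 0.04, 95% interval -0.19 to 0.0083, limma adjusted p = 0.694). The opposite pattern was seen in Galc, at chr12:98202300-98259459, whose product removes galactose from galactosylceramide. Galc had 18.4, 18.4 and 17.7 FPKM across CD44+/+ samples, and 19.5, 19.6 and 18.7 FPKM across CD44-/- samples, a log2 fold change of 0.08 (SE 0.06, 95% interval -0.042 to 0.21, limma adjusted p = 0.844). An antisense gene overlaps an exon of Galc in the GENCODE annotation (vM21), and reads of the pair may not have been told apart. The ratio of the genotypes was 0.938 for Asah1 and 1.06 for Galc.

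The remaining genes among these hydrolases and activators overlapped between the genotypes. Hexa, a subunit of an enzyme that degrades gangliosides, had 449 ± 15 FPKM in CD44+/+ and 440 ± 12 FPKM in CD44-/- AMs (SD, n = 3). Ppt1, which removes palmitate from proteins, had 189, 152 and 131 FPKM across CD44+/+ samples, and 185, 156 and 171 FPKM across CD44-/- samples. Its log2 fold change of 0.13 came with an interval of -0.15 to 0.41, so that a difference of this size was not detectable with these samples. It was 0.27 without CD44+/+ replicate 1, 0.070 without CD44-/- replicate 1 and 0.0065 without CD44+/+ replicate 3. Smpd1, the acid sphingomyelinase, was the gene of lowest level among the 45, with 12.8, 13.6 and 13.9 FPKM across CD44+/+ samples, and 13.2, 15.8 and 15 FPKM across CD44-/- samples (log2 fold change 0.12, 95% interval -0.060 to 0.31). It was 0.20 without CD44-/- replicate 1 and 0.067 without CD44-/- replicate 2. In Smpd1, CD44-/- replicate 1 lay among the CD44+/+ samples. Glb1, the beta-galactosidase, had 34.9 ± 2.63 and 35.3 ± 2.44 FPKM (SD, n = 3). Gla, the alpha-galactosidase with both motif copies shown above, had 24.4 ± 1.15 and 26.1 ± 0.656 FPKM (SD, n = 3), and Arsa, which desulfates sulfatide, 18.8 ± 0.961 and 18.7 ± 0.854 FPKM.

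Cholesterol freed by Lipa is bound by the soluble Npc2 and handed to Npc1 in the lysosomal membrane for export. Npc2 had 192 ± 5.51 FPKM in CD44+/+ and 195 ± 5 FPKM in CD44-/- AMs (SD, n = 3), and Npc1 had 105 ± 4.58 and 108 ± 3.46 FPKM (SD, n = 3). Their log2 fold changes were 0.02 (95% interval -0.081 to 0.13) and 0.04 (95% interval -0.077 to 0.16). A difference of more than 0.16 on the log2 scale lay outside both intervals.

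Of the 5 glycan hydrolases, 4 had a log2 fold change above 0, with a median of 0.09, and the difference was largest in Arsb. Arsb, at chr13:93771679-93943016 (mm10), encodes the sulfatase that removes sulfate from dermatan and chondroitin sulfate. It had 21.4, 20.0 and 18.8 FPKM across CD44+/+ samples, and 21.8, 23.7 and 22.7 FPKM across CD44-/- samples. The lowest CD44-/- sample was only just above the highest CD44+/+ sample. The log2 fold change was 0.18 (SE 0.07, 95% interval 0.028 to 0.33, limma adjusted p = 0.552). Noncoding genes overlap exons of Arsb on the other strand.

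Gusb, the beta-glucuronidase that takes part in the breakdown of glycosaminoglycans, hyaluronan included, had 198, 194 and 180 FPKM across CD44+/+ samples, and 193, 211 and 206 FPKM across CD44-/- samples. Replicates 2 and 3 of the CD44-/- AMs were above all CD44+/+ samples and replicate 1 lay within their range. The log2 fold change was 0.09 (95% interval -0.036 to 0.22), and it was 0.052 without CD44+/+ replicate 3. Man2b1, the lysosomal alpha-mannosidase, had 193 ± 9.24 and 208 ± 4.51 FPKM (SD, n = 3), with an interval of -0.011 to 0.22. Neu1, the sialidase, had 45.9 ± 3.21 and 48.8 ± 1.79 FPKM, and Gaa, which degrades glycogen, 40.0 ± 3.25 and 39.5 ± 1.56 FPKM (SD, n = 3). The levels of Man2b1 and Gusb overlapped in both genotypes, while Neu1 was above Gaa in every sample.

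The 7 membrane proteins and channels all had intervals within 0.25 of 0. Laptm5, a transmembrane protein of lysosomes in blood cells, had 1280, 1240 and 1240 FPKM across CD44+/+ samples, and 1300, 1220 and 1330 FPKM across CD44-/- samples, a log2 fold change of 0.03 (95% interval -0.088 to 0.15). Its samples overlapped fully. Cd164, a sialomucin of endosomes and lysosomes at chr10:41519500-41531042 (mm10), had 797, 756 and 746 FPKM across CD44+/+ samples, and 718, 718 and 728 FPKM across CD44-/- samples. All CD44-/- samples were below all CD44+/+ samples, by a log2 fold change of -0.09 (SE 0.05, 95% interval -0.20 to 0.022, limma adjusted p = 0.774).

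Lamp1 and Lamp2 encode the glycoproteins that line the lysosomal membrane. Lamp1 had 660 ± 19.6 FPKM in CD44+/+ and 697 ± 36.5 FPKM in CD44-/- AMs (SD, n = 3), and Lamp2 had 227 ± 2.46 and 223 ± 5.31 FPKM (SD, n = 3). The log2 fold changes of 0.08 and -0.03 had intervals that covered 0. Scarb2, a receptor that carries cargo to the lysosome, had 196 ± 14 and 205 ± 8.50 FPKM (SD, n = 3). Mcoln1, the lysosomal calcium channel, had 36.4 ± 0.436 and 37.2 ± 2.61 FPKM, and Ctns, which exports cystine, 23.7 ± 1.07 and 22.7 ± 0.907 FPKM (SD, n = 3).

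The 4 subunits of the V-ATPase had log2 fold changes between -0.02 and 0.06. Atp6v0d2, the isoform of the d subunit found in macrophages and osteoclasts, had 579 ± 15 FPKM in CD44+/+ and 605 ± 23.4 FPKM in CD44-/- AMs (SD, n = 3). It was the highest of the 4 in every sample. Atp6v0c, of the ring that carries protons, had 135 ± 14.5 and 132 ± 6.93 FPKM (SD, n = 3). Atp6v1a, the catalytic subunit, had 95.7 ± 6.49 and 95 ± 1.71 FPKM, and Atp6v1h 63.8 ± 1.19 and 63.1 ± 2.87 FPKM (SD, n = 3).

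The transcription factors were all below the median level of the 45 genes, and all 3 had lower values in CD44-/- AMs, although none passed the test. Tfeb, at chr17:47737037-47792416 (mm10), had 38.4, 39.8 and 40.6 FPKM across CD44+/+ samples, and 36.2, 34.9 and 37.8 FPKM across CD44-/- samples. The gap between the groups was smaller than the spread within either. Its log2 fold change was -0.13 (SE 0.05, 95% interval -0.25 to -0.0029, limma adjusted p = 0.645).

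Tfe3, at chrX:7762661-7775202, had 27.0, 27.4 and 28.1 FPKM across CD44+/+ samples, and 26.1, 25.8 and 26.2 FPKM across CD44-/- samples. Replicates lay closer together on the log2 scale than in any other of the 45 genes, and the difference was small, with a log2 fold change of -0.08 (SE 0.05, 95% interval -0.19 to 0.036, limma adjusted p = 0.833). Mitf, at chr6:97807058-98021358, had 16.4, 16.1 and 16.0 FPKM across CD44+/+ samples, and 15.5, 13.7 and 14.3 FPKM across CD44-/- samples. The log2 fold change of Mitf was -0.16 (SE 0.07, 95% interval -0.31 to -0.010, limma adjusted p = 0.619), a ratio of 0.896. In none of the 15 alternative analyses did Tfeb, Tfe3 or Mitf pass the test. All 3 kept their sign, but in groups without overlap only median-ratio scaling or quantile normalization could have turned it.

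Grn encodes progranulin, which is carried to lysosomes and supports their hydrolases, and lies at chr11:102430322-102436809 (mm10). It had 534, 511 and 541 FPKM across CD44+/+ samples, and 557, 559 and 575 FPKM across CD44-/- samples. All CD44-/- samples were above all CD44+/+ samples, with a log2 fold change of 0.09 (SE 0.05, 95% interval -0.014 to 0.20, limma adjusted p = 0.719). An exon of Fam171a2 overlaps Grn on the other strand.

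**Figure D3:**
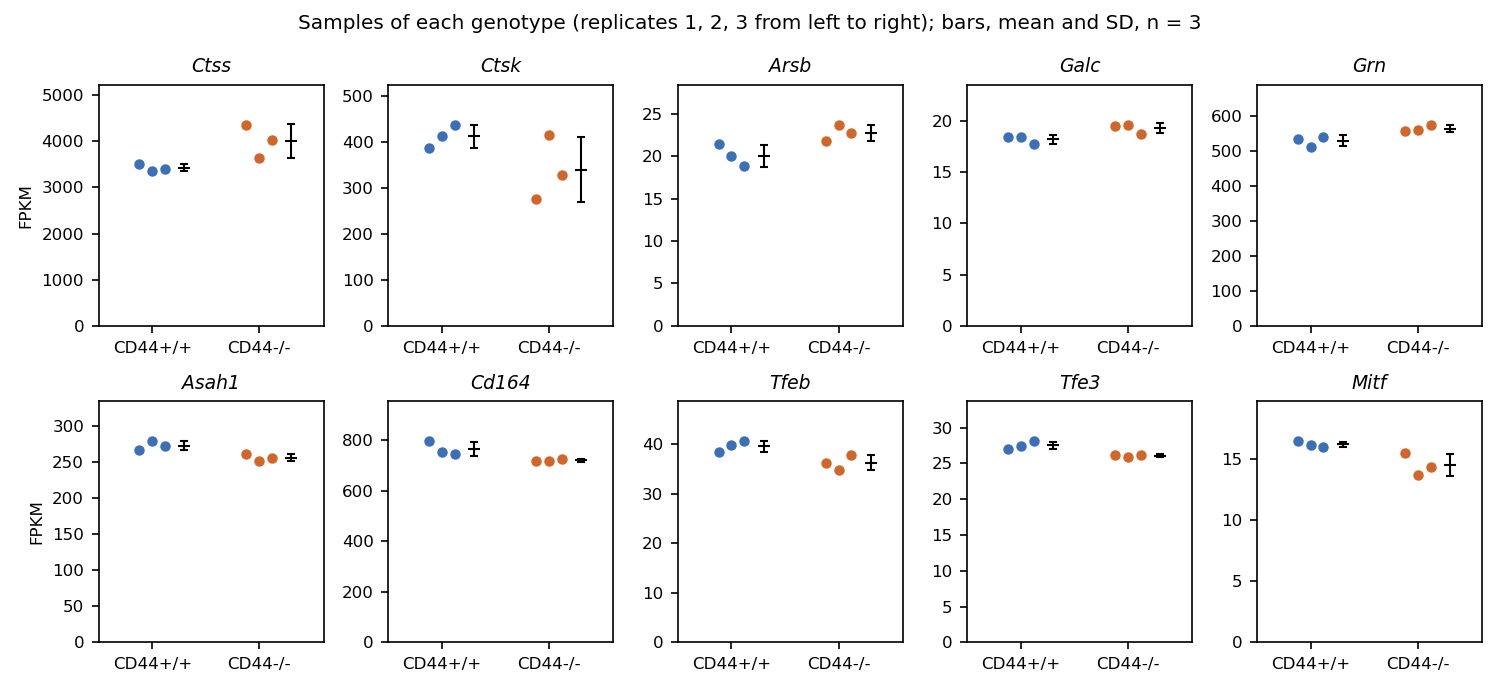
FPKM in each sample for the 9 lysosomal genes whose samples do not overlap between the genotypes, and for Ctsk; blue points are CD44+/+ and orange points CD44-/- samples, bars give the mean and SD (n = 3), and each axis starts at 0. Ctss, Arsb, Galc and Grn lie higher in CD44-/- AMs, Asah1, Cd164, Tfeb, Tfe3 and Mitf lie lower, and the Ctsk samples overlap.

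The fold changes can be set beside the promoter motif. The 13 genes with CACGTG had a median log2 fold change of 0.0030 (range -0.09 to 0.10, 7 above and 6 below 0), and the 26 genes without it a median of 0.021. Groups did not overlap in 1 of the 13, Cd164, and in 7 of the 26, where 6.75% of all genes tested were higher and 4.88% lower without overlap. For the 6 genes with TCACGTGA shown above the median was 0.014, and their fold changes were 0.02 for Ctsd, 0.03 for Mcoln1, -0.09 for Cd164, -0.0081 for Atp6v1a, 0.0030 for Ctsa and 0.10 for Gla. These values are a description of the promoters given, and no test was made of them.

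Other genes of the lysosome were followed in lists. Of 29 further enzymes, carriers and sorting receptors, 28 were tested and 0 passed with limma, 20 log2 fold changes were above and 8 below 0, and their median was 0.023. At an unadjusted p under 0.05, 5 were higher (17.9%, beside 4.75% of all genes tested) and 0 lower (beside 2.94%). The smallest p-values were those of Igf2r, the receptor for mannose 6-phosphate and IGF2, and of Naglu, which degrades heparan sulfate. Igf2r had a low level and was tested only through its CD44-/- samples, since its CD44+/+ mean of 0.38 FPKM was under the limit of 0.5 FPKM. It had 0.326, 0.370 and 0.444 FPKM across CD44+/+ samples, and 0.719, 0.718 and 0.845 FPKM across CD44-/- samples (log2 fold change 0.85, limma adjusted p = 0.383). Naglu had 48.8 ± 1.2 FPKM in CD44+/+ and 54.7 ± 0.854 FPKM in CD44-/- AMs (SD, n = 3), a log2 fold change of 0.16 with a limma adjusted p of 0.386. In 6 of the 28 all CD44-/- samples were above all CD44+/+ samples (Igf2r, Naglu, Acp2 and Fuca1 among them), which is 21.4% beside 6.75% of all genes tested, and in 0 below, beside 4.88%. Among the 27 genes of the list whose mean reached 0.5 FPKM in both genotypes, which leaves out Igf2r and was a restriction added after the values were seen, the counts were 4 (14.8%) at an unadjusted p under 0.05 and 5 (18.5%) without overlap, beside 4.56% and 6.52% of the 10662 genes so restricted. The summed FPKM of the list was 3179 to 3337 in CD44+/+ and 3346 to 3459 in CD44-/- samples, which did not overlap.

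The 13 other subunits and accessory proteins of the V-ATPase were examined beside the 4 described above. None passed with limma or had an unadjusted p under 0.05, 5 fold changes were above and 8 below 0, and the median was -0.012. The smallest p-values were those of Atp6v1d (log2 fold change 0.11), Atp6v1c1 (0.13) and Atp6v0b (-0.08). Of the cystatins, which inhibit cathepsins, Cst3 and Cstb could be tested. Cst3, secreted cystatin C, had 732, 679 and 657 FPKM across CD44+/+ samples, and 744, 742 and 751 FPKM across CD44-/- samples (log2 fold change 0.11, limma adjusted p = 0.681), without overlap, and Cstb had a log2 fold change of 0.06.

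Genes around the control of TFEB, TFE3 and MITF were examined as well. The list of 18 genes covers mTORC1 with its Rag GTPases and Ragulator, the folliculin complex, the mTORC1 inhibitors Tsc1 and Tsc2, Ppp3cb, a subunit of the phosphatase calcineurin, which acts in the opposite sense to mTORC1 on TFEB, and Zkscan3, a repressor of autophagy genes. Of these, 16 were tested, 0 passed with limma and 0 had an unadjusted p under 0.05, with 9 fold changes above and 7 below 0 and a median of 0.0083. The smallest p-values were those of Flcn, folliculin (log2 fold change 0.13, 95% interval -0.0076 to 0.27), Fnip1 (-0.07) and Tsc1 (0.08). Rragd, a Rag GTPase that is itself a target of these factors, was at 0.187 to 0.408 FPKM and too low to test. RNA levels do not show where in the cell a factor is, nor whether it is phosphorylated.

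Of 17 autophagy genes, 0 passed with limma and 0 had an unadjusted p under 0.05. Their median log2 fold change was 0.033, with 13 above and 4 below 0, and Ulk1 (0.15), Wipi1 (-0.12) and Optn (0.19) had the smallest p-values. The 7 genes of MHC class II stood apart in size, with all 7 fold changes above 0, a median of 0.62 and 5 at an unadjusted p under 0.05 (71.4%, beside 4.75% of all genes tested), but 0 passed with limma and in 0 of them did the samples separate. The smallest p-values were those of Cd74 (log2 fold change 0.64), H2-Eb1 (0.68) and H2-Aa (0.67), and CD44-/- replicate 1 lay among the CD44+/+ samples in each.

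**Figure D4:**
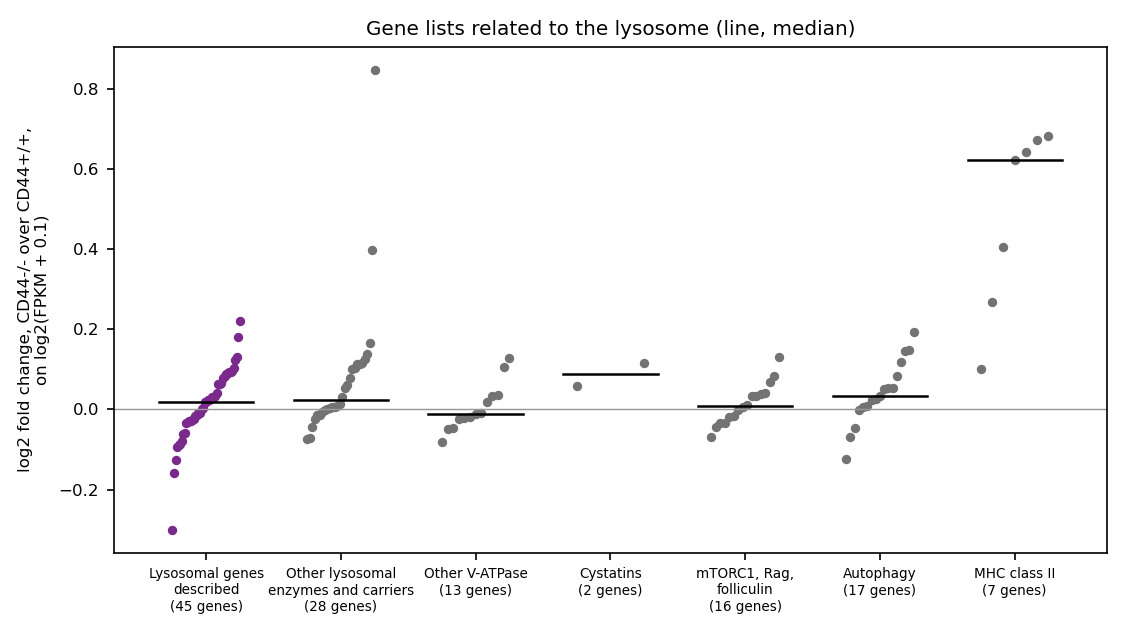
Log2 fold change, CD44-/- over CD44+/+ on log2(FPKM + 0.1), of the 45 lysosomal genes (purple) and of genes in the related lists (grey), sorted within each list, with a line at the median. Medians lie between -0.012 and 0.087 for all lists except MHC class II, whose median is 0.62.

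Set among all genes tested, the lysosomal genes lay in the upper range of expression and close to 0 in fold change. Their median absolute log2 fold change was 0.062, beside 0.065 over all genes tested and 0.048 over the 4973 genes of the level of Smpd1 or higher. The 5 highest genes, Ctsd, Ctss, Psap, Laptm5 and Ctsz, had log2 fold changes of 0.02, 0.22, 0.02, 0.03 and 0.00049. Ctss was the exception among them.

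**Figure D5:**
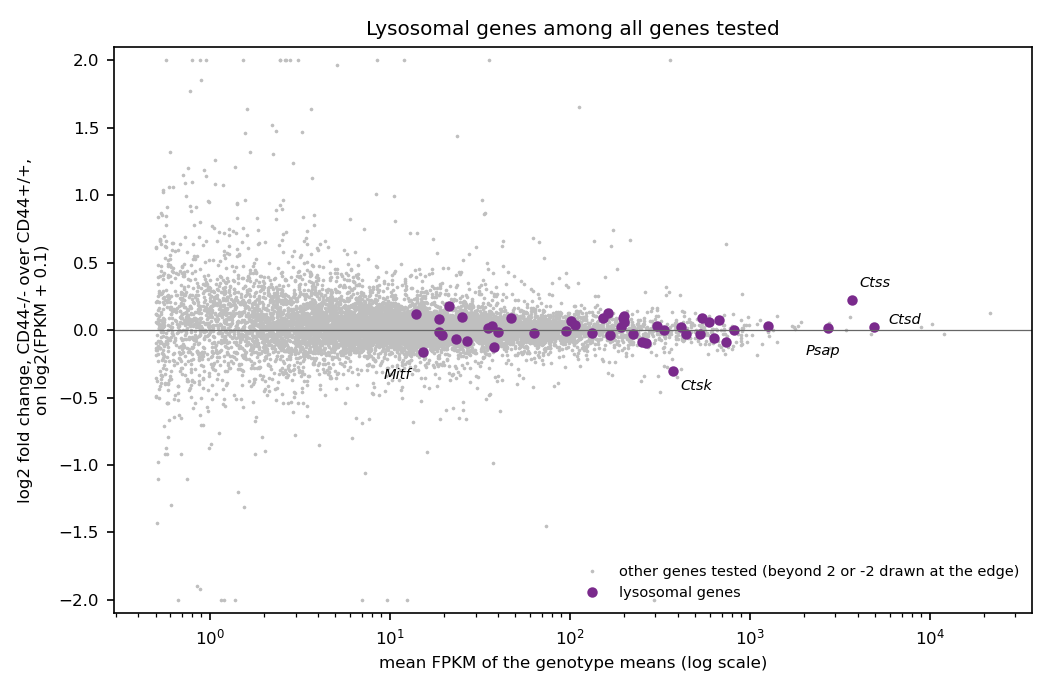
Log2 fold change against mean FPKM (log axis) for the 10800 genes tested; grey points are other genes and purple points the 45 lysosomal genes. The lysosomal genes lie between -0.30 and 0.22, and Ctsk and Ctss are the farthest from 0.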

How the data were processed

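RNA of BAL AMs was sequenced in 3 CD44+/+ and 3 CD44-/- samples, with genotypes and replicate numbers as labelled. The submitters' processing notes name STAR, Cufflinks, Cuffdiff and the build mm10. The authors deposited FPKM values for 24341 genes, and 1 gene without a value in a sample was left out. The gene name and locus columns of the table follow a different row order from the identifiers and values (0 rows match), so positions were looked up by name. Identifiers holding more than 1 name (101) were kept as single genes. The table also holds the authors' Cuffdiff fold changes, p-values and q-values, which were not used.

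FPKM values were compared as deposited in R 4.3.3 with limma 3.58.1 (lmFit, eBayes with an intensity trend, two-sided, Benjamini-Hochberg) on log2(FPKM + 0.1) for genes whose mean reached 0.5 FPKM. A fold change on this scale understates the change of low genes. The fit was also run on simulated data, and its outcome there is not given. Python 3.11.15 and scipy 1.17.1 were used for summaries and exact permutation tests. Libraries were made with the NEBNext Ultra II Stranded mRNA kit, which keeps strand, and whether counting used it is not given in the sources used here. By GENCODE vM21, exons of 3 of the 45 genes (Ctsd, Ctsl and Glb1) are overlapped on the same strand and those of 13 on the other strand.

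Relative depth was read from steps between low values. Absolute depth is unknown, so no counting interval is given. Deviations of same-numbered samples from their group means had correlations of 0.212, 0.132 and 0.211, against -0.195 to 0.025 for samples of unlike number. The numbers were therefore treated as pairs in a replicate block, which is among the alternatives below. The main fit used the genotype only.

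Named were all 45 genes, the 3 smallest p-values of each further list, and Cd44, apart from items that are not reported here. Values in every sample were given for genes without overlap or with an unadjusted p under 0.05, the 5 highest and the transcription factors, and for Pla2g15, Ppt1, Smpd1 and Gusb, added after their values were seen. The 45 genes and the lists were chosen with earlier results of these data known.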

Additional observations from a re-analysis of the deposited data

How the results depend on the processing

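Under each of 15 alternatives (the replicate block, each sample left out, robust or trendless eBayes, quantile normalization, scaling by median ratios, a pseudocount of 1 or 0.01, a filter at 1 FPKM or none), 0 of 45 lysosomal genes passed. The replicate block gave 0 of 45 and changed no call among them; over all genes it gave 9 calls, against 12. Over all genes 7 passed without a filter, and 6 to 36 when a sample was left out (36 without CD44+/+ replicate 1, 22 without CD44-/- replicate 1, 7 without CD44+/+ replicate 2, 6 without CD44-/- replicate 2). Lysosomal genes with an unadjusted p under 0.05, 5 in all, were 3 after median-ratio scaling, quantile normalization or eBayes without a trend, and 0 to 5 when a sample was left out (0 without CD44+/+ replicate 2, 1 without CD44-/- replicate 3, 2 without CD44+/+ replicate 3 or CD44-/- replicate 2). Genes without overlap, 9 in all, were 5 after quantile normalization and 10 to 16 when a sample was left out, where fewer samples overlap less. The cause of the other differences was not tested. The difference in the share of summed FPKM, 0.114 percentage points, was 0.0085 without the 10 genes of highest mean, Ctsd and Ctss among them, and 0.0407 to 0.208 when a sample was left out (0.0407 without CD44-/- replicate 1, 0.0467 without CD44+/+ replicate 2, 0.208 without CD44+/+ replicate 3). The median log2 fold change of the 45 genes, 0.018 beside 0.013 over all genes, was 0.0035 beside -0.0014 after median-ratio scaling, and 0.0071 to 0.045 when a sample was left out (0.0071 beside 0.024 without CD44-/- replicate 3, 0.0079 beside 0.0068 without CD44+/+ replicate 2, 0.045 beside -0.0076 without CD44+/+ replicate 3).

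The sign of the log2 fold change held in all alternatives for 29 of 45 genes, including Ctsk. The 9 genes without overlap are among the 29, but only median-ratio scaling or quantile normalization could have turned their sign. Median-ratio scaling turned the sign for Ctsa (-0.012) and Ctsz (-0.014). When a sample was left out, it crossed 0 for Ctsa (-0.023 to 0.023), Ctsb (-0.015 to 0.073), Ctsd (-0.029 to 0.085), Ctsf (-0.085 to 0.064), Ctsl (-0.12 to 0.064), Ctsz (-0.084 to 0.077), Lipa (-0.077 to 0.023), Glb1 (-0.032 to 0.076), Hexa (-0.046 to 0.00073), Arsa (-0.050 to 0.023), Psap (-0.031 to 0.087), Gaa (-0.047 to 0.052), Mcoln1 (-0.0098 to 0.088), Atp6v1a (-0.046 to 0.046), Atp6v1h (-0.055 to 0.0041) and Atp6v0c (-0.11 to 0.051). It kept its sign but moved by over 1.5 times when a sample was left out for Ctsc (-0.091 to -0.038), Ctsh (0.0027 to 0.060), Lgmn (0.056 to 0.14), Pla2g15 (-0.15 to -0.053), Smpd1 (0.067 to 0.20), Gla (0.062 to 0.13), Npc1 (0.0063 to 0.068), Npc2 (0.0035 to 0.045), Gusb (0.052 to 0.13), Neu1 (0.056 to 0.15), Lamp1 (0.036 to 0.11), Lamp2 (-0.050 to -0.019), Scarb2 (0.027 to 0.12), Laptm5 (0.0071 to 0.069), Ctns (-0.092 to -0.027) and Atp6v0d2 (0.033 to 0.088), and for Ctsk and Ppt1 as given above. With 3 pools per genotype, small differences could have been missed, and the 95% intervals given are not a limit of detection. Those of Ctss, Arsb, Mitf, Tfeb and Ctsk left out 0, and these genes still did not pass (limma adjusted p from 0.499 to 0.645).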
